A study of Mus musculus with 15 samples.

Results

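Pericentral Wnt target genes are genes that hepatocytes around the central vein of the liver lobule express under the control of Wnt signalling. The set described here was chosen by name, as the rows of the deposited genotype results whose gene symbol was Axin2, Lgr5, Tbx3, Nkd1, Rnf43, Znrf3, Glul, Oat, Rhbg or Lect2. All 10 were found, each on 1 row, among 24965 genes in the table. All 10 also had an adjusted p-value, as did 13335 genes in all.

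RNA was sequenced from frozen livers of 15 male C57BL/6J mice, 9 weeks old, all homozygous for a floxed allele of Gata4, a zinc finger transcription factor. An adeno-associated virus (AAV8) was given at 8 weeks of age. Gata4LKO mice got AAV8-Tbg-Cre, in which the hepatocyte-active Tbg promoter drives Cre, and control mice got an empty AAV8, so that control livers never held Cre. Livers were taken 7 days later, from 4 fasted control, 4 fasted Gata4LKO, 4 refed control and 3 refed Gata4LKO mice. The fast lasted 12 h, and refed mice then ate a diet with 69% sucrose and 10% fat for 12 h. Per the labels, all livers were collected in the same morning hour.

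The deposited results hold 1 comparison and no values per liver, so the values of single livers are not shown here. It was read as Gata4LKO minus control in fasted livers, 4 against 4, within a model that also took in the 7 refed livers. How that reading was reached, and a second reading that the same fit could not separate from it, are given with the processing. Every direction below rests on it. Each error is the standard error (SE) of the authors' model, and each 95% interval is the normal interval from that SE. A gene is said to be called where the deposited adjusted p was under 0.05. In the sample titles all mice of a group carry the same number, and no other group carries it. What that number marks is not stated, and whatever it marks cannot be told apart from genotype or feeding in these groups. The p-values measure only the spread between these livers.

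In Wnt signalling, a secreted Wnt protein binds a Frizzled receptor with LRP5 or LRP6, the complex that degrades β-catenin is held back, and β-catenin joins TCF and LEF factors to switch on target genes. In the liver the endothelial cells of the central vein supply Wnt2, Wnt9b and the enhancer R-spondin 3, which keeps the pathway active in the nearest hepatocytes. Some target genes feed back on the pathway itself. Others carry out the pericentral program, for which glutamine synthesis from ammonia is the textbook example.

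The labelled target and the tissue were looked at first. Gata4, at 327 normalized counts on average, had a log2 estimate of 0.31 ± 0.15 (SE) in the authors' deposited table. It was thus not lower in livers labelled Gata4LKO, and its interval, from 0.03 to 0.60, lay above 0. By the DESeq2 Wald test Gata4 was higher at an unadjusted p of 0.0324, with an adjusted p of 0.361, so it was not called. Whether this sign, opposite to the label, bears on the reading of the comparison was not tested. Since the floxed exons are not named in the labels, this whole-gene count is no test of a deletion of some exons. All 8 hepatocyte markers listed were present, with means between 11952 and 1.11e+06 normalized counts, and together they made up 9.04% of the summed means. One of them, Apoa1, whose product is the chief protein of HDL, was called, with an estimate of -0.48 ± 0.11 (log2, SE) in the authors' deposited table. Of all tested genes 2.19% were called.

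None of the 10 pericentral Wnt target genes was called. In the whole comparison 2.19% of tested genes were called, 1.60% lower and 0.585% higher. At an unadjusted p under 0.05, by the same DESeq2 Wald test, 3 of the 10 were lower and 0 were higher in livers labelled Gata4LKO. Over all tested genes 11.4% had such a p, 6.21% lower and 5.17% higher. The 3 were Axin2, Rhbg and Tbx3, with log2 estimates between -0.74 and -0.41 in the authors' deposited table. The other 7 lay within 0.2 of 0 on the log2 scale. Estimates were negative for 8 of the 10 and positive for 2, with a median of -0.06. Among all tested genes 48.1% of estimates were negative and the median was 0.01.

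The upstream sequences of 3 of these genes are shown because they differ in the motifs of the factors concerned, TCF/LEF at the end of the Wnt pathway and GATA. Lect2 was the single gene of the 6 with a RefSeq promoter that had a TCF/LEF match, Rnf43 had GATA matches before its downstream start, and Axin2, a standard readout of the pathway, had neither. Each line gives the 250 bases before a transcription start in RefSeq (GRCm38.p6, the same build as mm10), 5′ to 3′ on the strand of the gene, with motif matches in capitals.
Axin2, chr11:108920099-108920348, plus strand: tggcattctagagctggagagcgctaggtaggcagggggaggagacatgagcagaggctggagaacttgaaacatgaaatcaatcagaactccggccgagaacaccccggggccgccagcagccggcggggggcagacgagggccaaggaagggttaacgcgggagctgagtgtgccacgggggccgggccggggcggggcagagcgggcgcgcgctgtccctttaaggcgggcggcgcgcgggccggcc
Lect2, chr13:56548539-56548788, minus strand: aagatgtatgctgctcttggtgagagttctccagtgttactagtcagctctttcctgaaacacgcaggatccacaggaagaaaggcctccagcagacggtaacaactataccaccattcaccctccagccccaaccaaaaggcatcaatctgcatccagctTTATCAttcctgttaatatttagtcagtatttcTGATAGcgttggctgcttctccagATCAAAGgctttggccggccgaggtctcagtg
Rnf43, chr11:87699647-87699896, plus strand: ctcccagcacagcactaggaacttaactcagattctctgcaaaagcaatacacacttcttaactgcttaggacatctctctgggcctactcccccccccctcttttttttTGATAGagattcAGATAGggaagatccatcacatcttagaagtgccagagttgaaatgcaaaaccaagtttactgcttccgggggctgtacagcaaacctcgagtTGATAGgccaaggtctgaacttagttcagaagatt

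The motifs searched were CTTTGAA and CTTTGAT for TCF/LEF, on both strands. For GATA they were AGATAA with its variant AGATAG, and TGATAA with its variant TGATAG, also on both strands, and no match of one overlapped a match of the other in the printed windows. Of 32851 promoter windows of 300 bases (250 before and 50 after a start), 8.65% held a TCF/LEF match and 29.8% a GATA match. Windows were listed for 6 of the 10 genes, 7 windows in all. A TCF/LEF match was found in 1 gene and a GATA match in 2 genes. In Lect2 the TCF/LEF match CTTTGAT read on the minus strand of the gene and lay 26 to 32 bases before the start. The GATA matches of Lect2 lay 51 to 56 and 84 to 89 bases before it. In Rnf43 the window held 3 GATA matches, at 30 to 35, 123 to 128 and 135 to 140 bases before the start. A match describes the letters and is no evidence of binding, and the absence of a match in a short window says nothing about control from elsewhere.

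The 10 genes covered a wide range of levels. Levels are given as mean normalized counts over all 15 livers, fasted and refed, per kb of merged GENCODE exons. The highest was Oat at 6654, with Glul at 5896 and Lect2 at 1444, the genes of 2 enzymes and a secreted protein. Tbx3 followed at 145.7. The feedback genes were low, with 85.2 for Rnf43, 51.1 for Axin2, 29.9 for Znrf3 and 18.5 for Nkd1, and the receptor gene Lgr5 stood at 16.2. Rhbg, an ammonia transporter gene, was lowest at 14.2 over all its exon bases. Most of these bases are shared with another gene, and over the unshared ones the same count would amount to 36.9 per kb, above Znrf3, Nkd1 and Lgr5, which would leave Lgr5 lowest. The spread of these levels over livers is not given in the table, so neighbours in the order were not tested against each other.

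**Figure D1:**
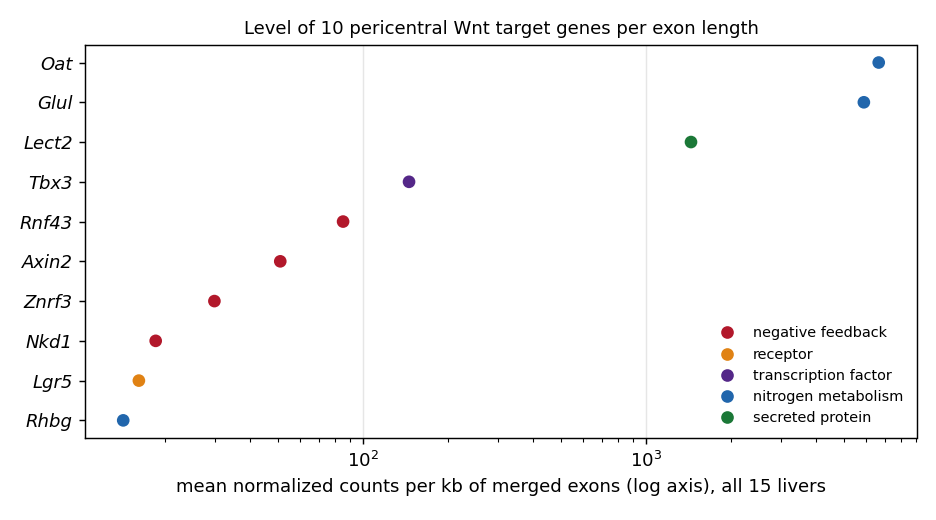
Mean normalized counts per kb of merged exons (log axis) for each of the 10 genes, averaged by the authors over all 15 livers, coloured by role. Oat and Glul stand at 6654 and 5896 and Lect2 at 1444, while the other 7 genes lie at or below 145.7.

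Axin2 had the smallest p of the feedback genes and of all 10. It encodes a scaffold of the complex that degrades β-catenin and is a direct target of the pathway it restrains. Axin2 (ENSMUSG00000000142) lies on chromosome 11, 108920349 to 108950783 (mm10), with 5506 merged exon bases. It averaged 281.3 normalized counts in the authors' deposited table, with a log2 estimate of -0.50 ± 0.17 (SE) and a 95% interval from -0.84 to -0.16. That estimate is a level of 0.707 of the control level, with an interval from 0.558 to 0.896. The unadjusted p was 0.00412, rank 474 among tested genes, and the adjusted p was 0.116 by their DESeq2 Wald test, adjusted after Benjamini and Hochberg. An estimate of 0.57 in size on the log2 scale would have been called at this SE. Exons of Axin2 share 209 bases with the antisense gene Gm11670, whose mean in the authors' deposited table was 0.478 normalized counts.

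The estimates of the other 3 feedback genes were nearer to 0. Rnf43 and Znrf3 encode related membrane ubiquitin ligases that remove Frizzled receptors from the cell surface. Rnf43 (ENSMUSG00000034177, chromosome 11, 87662722 to 87735539) averaged 558.5 normalized counts in the authors' deposited table, with a log2 estimate of -0.11 ± 0.15 (SE, interval -0.40 to 0.19). Znrf3 (ENSMUSG00000041961, chromosome 11, 5276324 to 5444847) averaged 236.0 normalized counts there, and the authors' deposited table put its log2 estimate at -0.07 ± 0.17 (SE, interval -0.41 to 0.27). The estimate of Axin2 lies outside both intervals, while its own interval overlaps both. Nkd1, an inhibitor that binds Dishevelled, had the highest estimate of the 10. For Nkd1 (ENSMUSG00000031661, chromosome 8, 88521354 to 88594884) the authors' deposited table gave 84.5 normalized counts on average and a log2 estimate of 0.19 ± 0.21 (SE, interval -0.22 to 0.61). The differences between these genes were not tested, since the table gives no covariance between genes.

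Lgr5 encodes a receptor for R-spondins, which protect Frizzled receptors from removal by RNF43 and ZNRF3. Lgr5 (ENSMUSG00000020140, chromosome 10, 115450311 to 115587780) averaged 166.0 normalized counts, and its log2 estimate in the authors' deposited table was -0.03 ± 0.15 (SE). The interval, from -0.33 to 0.27, allows levels between 0.795 and 1.21 of control.

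Tbx3, a T-box transcription factor gene that Wnt signalling controls in pericentral hepatocytes, was next to Axin2 in the size of its estimate. Tbx3 (ENSMUSG00000018604) lies on chromosome 5, 119670669 to 119684724. The gene averaged 964.8 normalized counts, and the authors' deposited table gave a log2 estimate of -0.41 ± 0.16 (SE, interval -0.73 to -0.09). The fold was 0.752 (0.602 to 0.940), the unadjusted p 0.0122 and the adjusted p 0.223 (DESeq2 Wald test). The gene Tbx3os1 starts on the opposite strand beside it and shares 115 exon bases with it. Tbx3os1 averaged 176.8 normalized counts, with a log2 estimate of 0.52 ± 0.19 (SE) in the authors' deposited table. The DESeq2 Wald test gave it an unadjusted p of 0.00751 and an adjusted p of 0.167. The sense and antisense estimates thus had opposite signs, and neither gene was called. Tbx3os1 was chosen after its value was seen, and whether reads were counted by strand is not stated.

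Of the 3 nitrogen genes, the abundant pair had estimates close to 0. Glul encodes glutamine synthetase, which binds ammonia into glutamine in the last hepatocytes before the central vein. Glul (ENSMUSG00000026473, chromosome 1, 153899944 to 153909723) averaged 19592 normalized counts, with a log2 estimate of -0.03 ± 0.14 (SE) in the authors' deposited table. Its interval, from -0.31 to 0.25, allows levels between 0.807 and 1.19 of control. Oat encodes ornithine aminotransferase, which turns ornithine into glutamate semialdehyde and so feeds glutamate to the same cells. For Oat (ENSMUSG00000030934, chromosome 7, 132557478 to 132576398) the authors' deposited table listed 15703 normalized counts on average and a log2 estimate of 0.06 ± 0.21 (SE, interval -0.35 to 0.46). Because of its larger SE, Oat could lie anywhere between 0.787 and 1.38 of control.

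Rhbg, an ammonia transporter of the Rhesus family, had the most negative estimate of the 10 and the lowest count. Rhbg (ENSMUSG00000104445, chromosome 3, 88242874 to 88254709) averaged 27.6 normalized counts, and the authors' deposited table put its log2 estimate at -0.74 ± 0.27 (SE, interval -1.28 to -0.20). The fold was 0.599, with an interval from 0.412 to 0.870. The unadjusted p was 0.00711 and the adjusted p 0.160 (DESeq2 Wald test). At this SE an estimate of 0.90 in size would have been called. In GENCODE, 1190 of its 1937 exon bases (61.4%), all but 747, also belong to Gm38392 on the same strand, which had a mean of 0.718 normalized counts in the authors' deposited table. How reads in shared bases were counted is not stated, so the level of Rhbg is uncertain.

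Lect2 encodes a protein that hepatocytes secrete into blood. Lect2 (ENSMUSG00000021539, chromosome 13, 56542464 to 56548502) averaged 1327 normalized counts in the authors' deposited table, with a log2 estimate of -0.05 ± 0.16 (SE, interval -0.37 to 0.27). That interval allows levels between 0.773 and 1.20 of control.

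**Figure D2:**
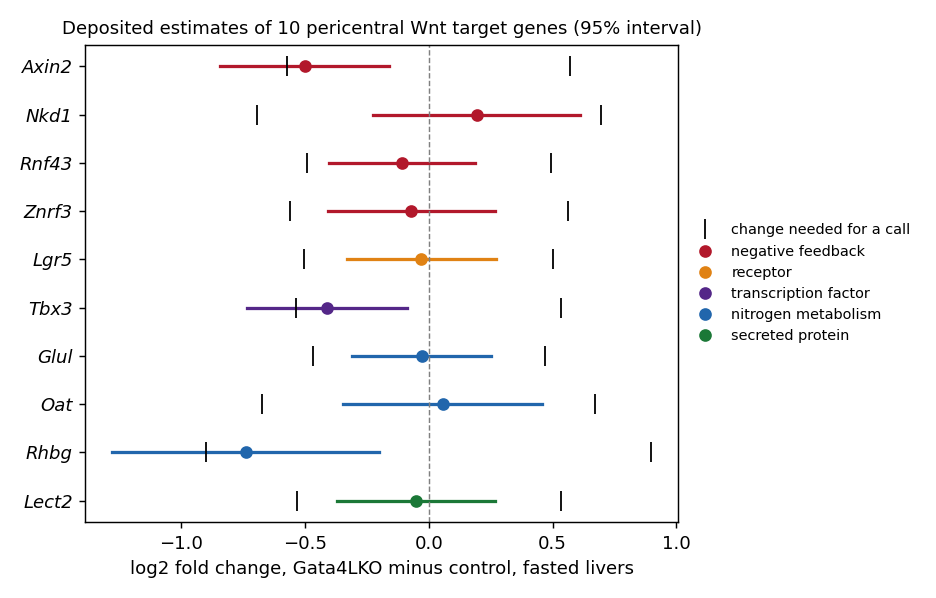
Log2 fold change of each gene, Gata4LKO minus control in fasted livers, with its 95% interval (line). Black ticks mark the size of estimate that would have been called at the SE of that gene. Axin2, Tbx3 and Rhbg lie at -0.50, -0.41 and -0.74 with intervals below 0 and estimates inside the ticks, and the other 7 intervals span 0.

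The estimates were less precise than those of most genes of like abundance. The SE of 9 of the 10 genes was above the median SE of the 500 tested genes nearest in mean, and that of 6 was above the 85th percentile. For Oat the SE was 0.21 against a median of 0.09, and for Glul 0.14 against 0.09. The median was the same for both, 0.0930, and how far those 500 genes spread in mean is not given here. For Axin2 the SE was 0.17 against 0.11, and for Tbx3 0.16 against 0.08. Rhbg was the exception, with 0.27 against 0.31. Estimates of a size between 0.47 (Glul) and 0.90 (Rhbg) on the log2 scale were needed for a call. This bounds the estimate at the given SE and is no limit on which true changes could be detected. For Glul the needed estimate was a rise to 1.38 or a fall to 0.723 of control. In bulk liver RNA, fewer pericentral cells and less RNA per cell cannot be told apart.

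**Figure D3:**
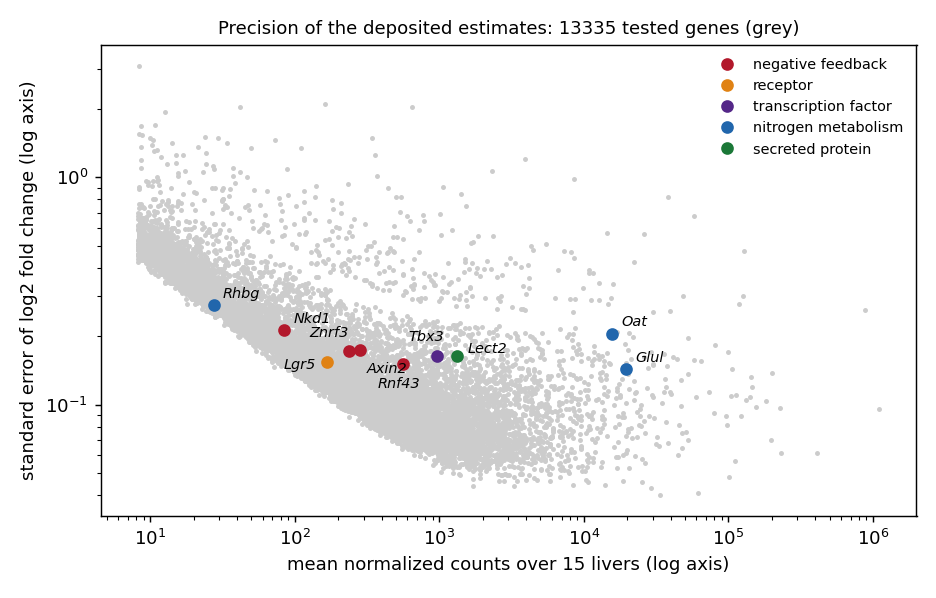
SE of the log2 fold change against mean normalized counts (both log axes) for all tested genes in grey and the 10 genes in colour. The 9 genes other than Rhbg lie above the median of the grey cloud at their abundance, with Oat at 0.21 and Glul at 0.14.

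The rest of the pathway is described from lists of genes, by counts beside the 2.19% called in all. For counts at an unadjusted p under 0.05 (DESeq2 Wald test), the shares over all tested genes were 6.21% lower and 5.17% higher. Of the ligands, R-spondins and genes of their secretion, 8 of 13 were tested (median 0.19). By the DESeq2 Wald test 0 were called, and 0 reached an unadjusted p under 0.05. The closest were Porcn, the acyltransferase that matures Wnt proteins, at 0.41 ± 0.22, and Wnt5b at -0.27 ± 0.16 (SE) in the authors' deposited table. Among 15 receptor genes 11 were tested and 0 called by that test, with 2 lower at an unadjusted p under 0.05 (median -0.07). Those 2 were the Frizzled genes Fzd7, at -0.34 ± 0.12, and Fzd6, at -0.67 ± 0.24 (SE), in the authors' deposited table. Their adjusted p-values were 0.0991 and 0.146 by the DESeq2 Wald test.

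Inside the cell, all 15 genes of the destruction complex and its regulators were tested and 0 were called, with 2 higher at an unadjusted p under 0.05 by the DESeq2 Wald test (median -0.02). These were Gsk3b, a kinase that marks β-catenin for degradation, at 0.26 ± 0.12, and the scaffold gene Apc at 0.13 ± 0.06 (SE) in the authors' deposited table. Among 12 tested nuclear factors 0 were called by that test and 3 were lower at an unadjusted p under 0.05 (median 0.01). Among them were the paired β-catenin coactivators Bcl9, at -0.35 ± 0.14, and Bcl9l, at -0.27 ± 0.12 (SE), in the authors' deposited table. The third was Tle3, a corepressor of TCF factors, at -0.35 ± 0.16 (SE) there, named after its value was seen. Among 14 inhibitor genes 3 had an adjusted p. By the DESeq2 Wald test 0 were called, with 2 higher and 1 lower at an unadjusted p under 0.05, while Notum, a Wnt deacylase, stood at 0.29 ± 0.12 and Dkk3 at 0.58 ± 0.26 (SE) in the authors' deposited table. The lower one was Kremen1, a receptor for Dickkopf proteins, at -0.26 ± 0.13 (SE) there, also named after its value was seen.

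Wnt target genes outside the 10 did not share a direction. Of 12 listed, 10 were tested and 0 called, with 2 higher and 2 lower at an unadjusted p under 0.05 by the DESeq2 Wald test (median 0.11). Myc, a growth regulator, stood at 0.40 ± 0.14 and the receptor gene Tnfrsf19 at -0.52 ± 0.20 (SE) in the authors' deposited table. Notum, counted among the inhibitors too, was the other higher gene. The other lower gene was Sp5, a transcription factor gene that Wnt signalling induces, at -0.75 ± 0.31 (SE) in the authors' deposited table, named after its value was seen.

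Other pericentral genes, mainly of metabolism, included 1 called gene among 24 tested, against 2.19% of all genes. It was Gulo, which encodes the last enzyme of vitamin C synthesis and fell by 0.50 ± 0.10 (SE) on the log2 scale in the authors' deposited table. Its adjusted p was 0.000296 by the DESeq2 Wald test. At an unadjusted p under 0.05 the list held 3 higher genes besides this 1 lower gene. The higher ones, named after their values were seen, were the cytochrome P450 gene Cyp2a5 at 0.97 ± 0.34, the amino acid transporter gene Slc1a4 at 0.71 ± 0.23 and the carboxylate transporter gene Slc13a3 at 0.42 ± 0.17 (SE) in the authors' deposited table. Their adjusted p-values were 0.119, 0.0691 and 0.243 by that test, and reads of Cyp2a5 may be split with its near-identical paralog Cyp2a4. The estimates of this list were positive for 21 of 24 (median 0.11), whereas those of the 10 Wnt target genes were negative for 8 (median -0.06). This contrast of the lists was not tested, and their genes differ in abundance. The pericentral list was not chosen to leave Wnt targets out. The contrast therefore does not set Wnt targets against genes free of Wnt control. Of the 10 estimates 7 lay within 0.2 of 0, with intervals that span 0. Cldn2, in the pericentral list, was also counted among the Wnt target genes outside the 10. Of 20 periportal genes, which lie at the other end of the lobule, 1 was called higher and 2 lower (median 0.05). Over all tested genes 0.585% were called higher and 1.60% lower. Etnppl, a phospholyase of phosphoethanolamine, rose by 0.78 ± 0.19 (SE) on the log2 scale in the authors' deposited table. The urea cycle gene Otc was at -0.70 ± 0.08 and the aldehyde dehydrogenase gene Aldh1b1 at -1.10 ± 0.30 (SE) in the authors' deposited table. Ctsc, at -0.32 ± 0.14 (SE) there, was the single other gene of the list with an unadjusted p under 0.05 by the DESeq2 Wald test.

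Among 18 tested genes of glutamine, glutamate and ornithine metabolism, the reactions around Glul and Oat, 1 was called, against 2.19% of all genes. It was again Otc, which uses the ornithine that OAT would otherwise degrade. For Got2, an aspartate aminotransferase gene, the authors' deposited table gave a log2 estimate of -0.18 ± 0.06 (SE), and its DESeq2 Wald test an adjusted p of 0.0615. Got2 and, above, Ctsc were chosen for naming with their values known. The median of that list was -0.03.

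Markers of the cells that supply Wnt ligands are given beside these values. Of 6 central vein endothelial markers, among them Rspo3, Wnt2 and Wnt9b, all were tested, 0 were called and 0 had an unadjusted p under 0.05 by the DESeq2 Wald test (median 0.35, 5 of 6 positive). Rspo3, the R-spondin 3 gene, stood at 0.31 ± 0.20 and Kit at 0.34 ± 0.21 (SE) in the authors' deposited table. The negative one was Wnt2, at -0.05 ± 0.24 (SE) there, named after its value was seen. Rspo3, Wnt2 and Wnt9b were also counted in the list of ligands and R-spondins, so the medians of those lists share genes. Among 10 general endothelial markers 0 were called by that test, with 3 higher and 1 lower at an unadjusted p under 0.05 (median 0.19). All 10 Kupffer cell markers had negative estimates (median -0.27), 0 were called and 1, Clec4f, had an unadjusted p under 0.05, at -0.27 ± 0.13 (SE) in the authors' deposited table. Stellate and cholangiocyte markers had medians of 0.14 over 8 and 0.05 over 4 tested genes, with 0 called and 0 at an unadjusted p under 0.05 by the same test. Summed levels per group are not in the table, and the part of these cells in the values above was not tested.

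**Figure D4:**
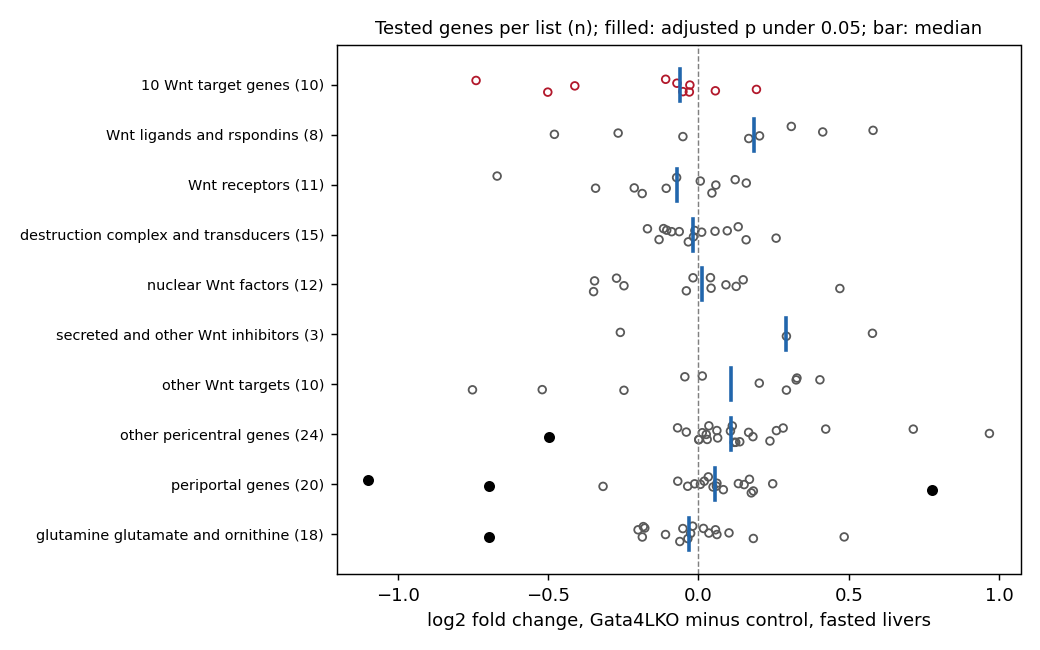
Log2 fold changes of all tested genes of the 10 Wnt target genes and 9 lists, 1 symbol a gene, filled where the adjusted p was under 0.05, with the median of each list as a bar. None of the 10 is filled, and filled symbols appear in the pericentral (1), periportal (3) and glutamine (1, Otc again) lists.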

How the data were processed

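Libraries came from total liver RNA with a stranded KAPA kit, per the labels' protocols. The submitters' processing notes name FastQC, STAR 2.6.0c, DESeq2 and mm10. Which counter, strand setting and gene models were used was not given in the sources used here. One table of results was analysed. Per the file headers, its mean is a signal averaged over libraries, with counts scaled by size factors, and its effect and error are log2 values. The deposited Wald score equals effect over error, and the deposited p-values were adjusted by the authors over 13335 genes, which a recomputed Benjamini-Hochberg adjustment matched. The table was not refitted, and the planned count test could not be run, as no counts per sample were at hand. Depth per library is unknown; the means summed to 1.80e+07 and relative size factors lay between 0.912 and 1.11.

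The contrast was worked out from genes with 1 read in 1 of 15 libraries. A negative binomial fit of such reads was made under 16 readings of the comparison. It left 2 within 1e-06 of the deposited estimates and errors, with a largest difference of 1.13e-12. The next differed by 4.37e-05 and were the same contrasts with the sign reversed, control minus Gata4LKO and fasted minus refed. The direction thus rests on that small difference. Simulated reads were made with the same fit, so their recovery checks the code only and not the reading. The 2 closest readings have a genotype by feeding interaction and fasted controls as reference. One is Gata4LKO minus control under fasting, the other refed minus fasted among controls. The first was taken because the result is named for genotype. Beside that choice, the fasting-induced genes Pck1 and Igfbp1 stood at 0.01 ± 0.82 and 0.27 ± 0.59 (log2, SE) in the authors' deposited table; these values were not used to choose the reading.

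GENCODE M21 (GRCm38) held 99.9% of the table's identifiers and gave coordinates and exon lengths. The plan was to name all 10 genes in full, together with Gata4. From each list it took the called genes, or else up to 2 genes of smallest p. Genes were also named outside that plan, among them those marked above as chosen with their values known, overlapping genes, Pck1 and Igfbp1. The genes and lists were chosen with earlier results of these data known. Work was done in Python 3.11.15 with numpy 2.4.6, pandas 2.3.3 and scipy 1.17.1.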

Additional observations from a re-analysis of the deposited data

How the results depend on the processing

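The count of called genes among the 10 was 0 under each of the 5 alternatives run. The DESeq2 Wald p-values were adjusted over every gene with a p (smallest adjusted p 0.212, Axin2) or over genes averaging 10 counts or more (0.113, Axin2). Over genes averaging 100 counts or more, which kept 8 of the 10 genes, the smallest was 0.1001 (Axin2). The remaining alternatives were Holm's adjustment and an adjusted p under 0.1 as the threshold. Centring on the median of all tested genes or of the 500 genes nearest in mean turned the sign of none of the 10 estimates. Among members with a mean of at least 100, the median of the ligand list was -0.27, which is Wnt5b alone, and that of the inhibitor list 0.0168 (2 genes). In the 250 bases before the start alone, 7.48% of promoters held a TCF/LEF match and 26.5% a GATA match, as a shorter window must hold fewer. No symbol of the 10 stood on more than 1 row, so a second row could not be tried. No paired analysis was possible because values per liver are not part of the table analysed, and leaving out single livers was not run for the same reason.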
